A study of Mus musculus with 6 samples.

Results

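Genes for Wnt ligands, their receptors and their antagonists were compared between mouse lungs with and without Nfat5 in endothelial cells, all taken after 7 days of hypoxia. Members were the probe sets whose platform gene symbol carried a Wnt, Fzd (Frizzled), Lrp5, Lrp6, Dkk (Dickkopf), Sfrp (secreted Frizzled-related protein), Wif1, Axin, Rspo (R-spondin) or Lgr4 to Lgr6 name. This rule found 50 of the 24704 named genes, each with 1 probe set. They were 19 Wnt ligands, 10 Frizzled receptors, 2 co-receptors, 9 secreted antagonists, 2 Axin genes, 4 R-spondins and 3 Lgr receptors. The remaining member was Fzd10os, a long noncoding RNA gene that shares the Frizzled name pattern and encodes no receptor.

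The 3 knockout arrays came from Nfat5(EC)-/- mice, in which loss of Nfat5 from endothelial cells was induced by intraperitoneal tamoxifen, 1 mg daily for 5 days. The 3 control arrays came from Nfat5fl/fl mice, which carried floxed alleles and were given miglyol, the solvent, in place of tamoxifen. Genotype and tamoxifen therefore differed together and cannot be told apart. Animals of both sexes, 10 to 12 weeks old at induction, rested for 2 to 3 weeks before use, and perfused whole lung was lysed for RNA. The sex of each animal was not labelled, and Xist, the RNA of the inactive X, stood at 8.22 on control replicate 1 and at or below 2.37 on the other arrays. Judged by Xist, control replicate 1 was female and no knockout was, so sex was not balanced between the groups. The sources used here name neither the promoter that drives the recombinase nor whether control mice carried it. The design text names 4 mice per group and states that preparations with other tissue in them or with a weak expression response to hypoxia had been left out. No lung kept in normal air was analysed here, so the values do not measure an effect of hypoxia.

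Wnt proteins are lipid-modified secreted ligands that bind Frizzled receptors on nearby cells. With the co-receptors LRP5 or LRP6 they protect β-catenin from destruction, so that it can act with TCF and LEF factors in the nucleus, and without these co-receptors they steer cell polarity and movement. Sfrp proteins and Wif1 bind the ligands, DKK1 blocks the co-receptors, and R-spondins acting through LGR receptors spare Frizzled proteins from removal. In the lung the pathway shapes the branching airway and the capillary bed during development and takes part in alveolar repair in the adult.

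The ligands Wnt10a, Wnt3a, Wnt7a and Wnt7b, the receptor Fzd5 and the co-receptor Lrp5 were higher in knockout lungs, whereas the receptor Fzd3 and the co-receptor Lrp6 were lower. No secreted antagonist, Axin gene, R-spondin or Lgr receptor passed the test, though some of each kind did under another setting. Values are log2 expression from the authors' table, and a gene was called when limma's Benjamini-Hochberg adjusted p over all 24704 genes lay under 0.05. By that rule 6 of 50 members (12.0%) were higher and 2 (4.0%) lower, against a background of 12.5% of all genes higher and 13.0% lower, and 25.5% in either direction. The share of members called was thus near the background for rises and below it for falls. At an unadjusted p under 0.05 there were 22 members (44.0%), against a background of 37.5% of all genes.

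The fitted log2 fold change, knockout minus control, was above 0 at 35 members (70.0%), against 53.5% of all genes, and its median was 0.38 over the members and 0.04 over all genes. The 3 knockout arrays did not overlap the 3 control arrays at 24 members (48.0%), where the background was 41.9%. They lay above the controls at 20 members (40.0%, background 21.9%) and below them at 4 (8.0%, background 20.0%). Dim genes were among the 20, such as the ligand Wnt8b, with means of 2.06 in knockouts and 1.84 in controls. Members share arrays and were not independent of each other, and these shares were not tested.

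**Figure D1:**
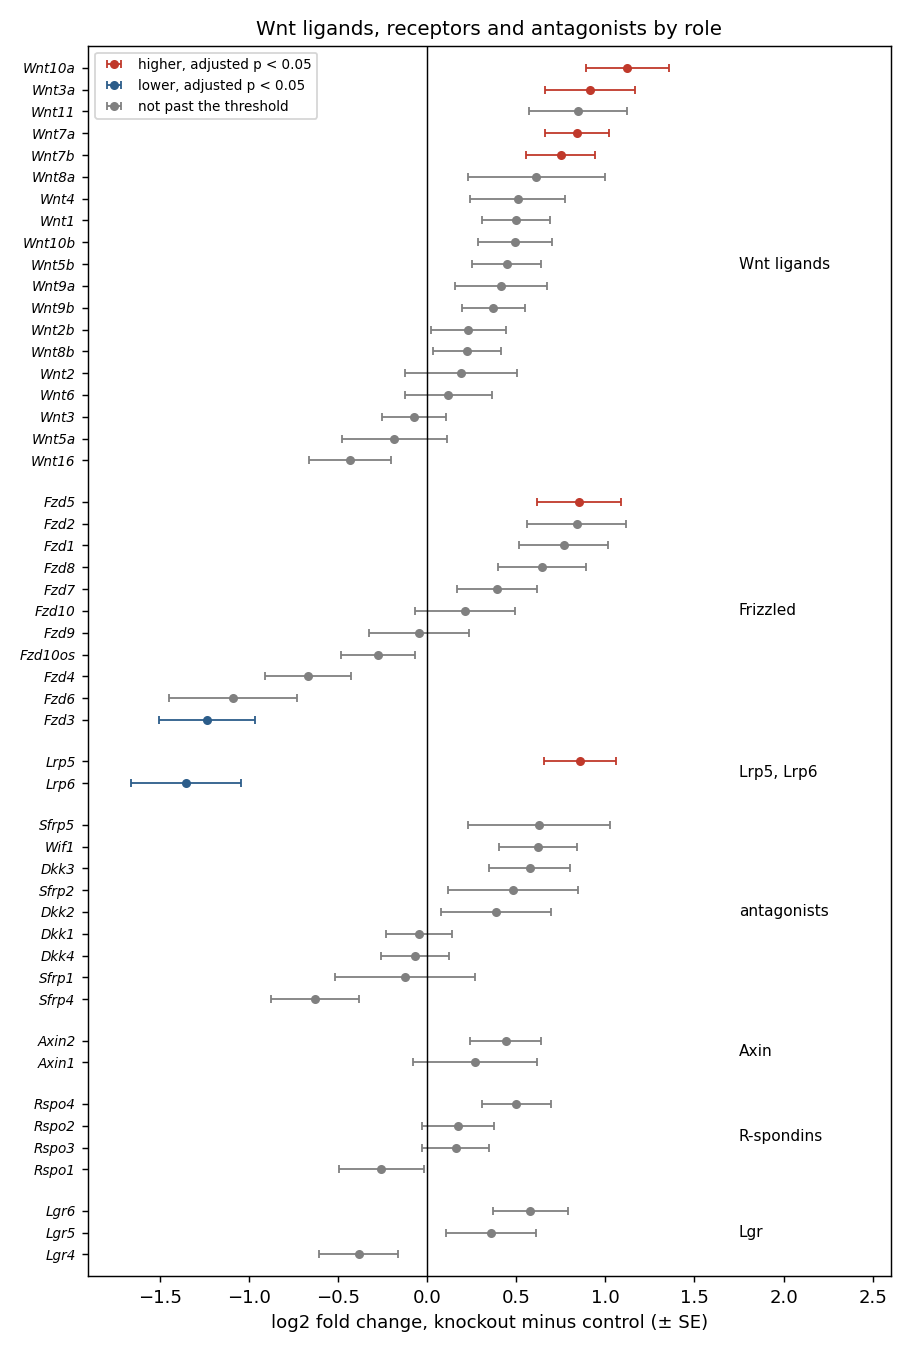
Log2 fold change, knockout minus control, with its standard error (horizontal bars) for each of the 50 members, grouped by role, from 3 knockout and 3 control arrays. Colour marks the members past the threshold in each direction; 16 of the 19 ligands lie right of 0, and the co-receptors Lrp5 and Lrp6 lie on opposite sides.

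Among the 19 ligands 4 were higher (21.1%) and 0 lower by limma, against 12.5% and 13.0% of all genes. At an unadjusted p under 0.05 there were 8 (42.1%), near the 37.5% of all genes. The fold change was above 0 at 16 ligands (84.2%, background 53.5%). All knockout arrays lay above all control arrays at 9 (47.4%, background 21.9%). Wnt10a, which acts through β-catenin, had log2 values on replicates 1, 3 and 4 of 4.53, 3.98 and 3.91 in knockouts, against 3.03, 2.80 and 3.22 in controls. The groups were well apart, and the gene was 2.18-fold higher in knockouts, with a log2 fold change of 1.12 ± 0.23 (SE; adjusted p = 0.00937). No other member passed a stricter threshold of 0.01.

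Wnt7a stood at 3.90, 3.76 and 3.83 in knockouts, against 3.03, 2.88 and 3.06 in controls. Both groups were tight and did not overlap, with a difference of 0.84 ± 0.18 (SE; adjusted p = 0.0103). Its close relative Wnt7b stood at 3.23, 2.86 and 3.01 in knockouts, against 2.29, 2.17 and 2.39 in controls, a difference of 0.75 ± 0.19 (SE; adjusted p = 0.0213). Control values of Wnt7b lay near the arrays' lower quartile of 2.02, where differences in level are poorly resolved. Wnt7b is made by the lung epithelium and is needed for lung growth in the mouse embryo, and both ligands act on endothelial cells in the mouse brain.

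Wnt3a, a ligand widely used to activate β-catenin in culture, had values of 4.79, 4.01 and 4.38 in knockouts, against 3.19, 3.52 and 3.73 in controls. The groups did not overlap, and the difference was 0.91 ± 0.25 (SE; adjusted p = 0.0277). Wnt11, a ligand of the polarity branch, missed the threshold at 0.85 ± 0.27 (SE; adjusted p = 0.0502). Its values were 3.33, 4.11 and 4.11 in knockouts, against 3.35, 2.71 and 2.96 in controls, so knockout replicate 1 lay within the control range. Of the members with an adjusted p of 0.05 to 0.06, which were Wnt11, Fzd1, Fzd2 and Fzd6, 3 had a positive fold change.

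Wnt2 and Wnt5a were among the ligands not called. Wnt2, which with Wnt2b specifies the lung in the mouse embryo, averaged 3.82 ± 0.63 in knockouts and 3.62 ± 0.24 in controls (SD, n = 3 each), a difference of 0.19 ± 0.31 (SE; adjusted p = 0.707). Wnt5a, a polarity ligand made by lung mesenchyme, differed by −0.18 ± 0.30 (SE; adjusted p = 0.707), with the groups overlapping. The 15 uncalled ligands ranged from −0.43 for Wnt16 to 0.85 for Wnt11. Means of Wnt3 in both groups (1.73 in knockouts and 1.80 in controls) lay below the arrays' lower quartile of 2.02, where an unexpressed gene cannot be told from a weak one.

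Wnt genes lie next to each other among protein-coding genes in 4 pairs in the RefSeq order (GRCm38.p6). Wnt10a was called at 1.12 while its neighbour Wnt6 stood at 0.12 (adjusted p = 0.768), and Wnt3a was called at 0.91 while its neighbour Wnt9a stood at 0.42 (adjusted p = 0.282). Neither gene passed in the pairs of Wnt1 with Wnt10b (0.50 and 0.49) and Wnt3 with Wnt9b (−0.07 and 0.37). Whether neighbours differed from each other was not tested.

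**Figure D2:**
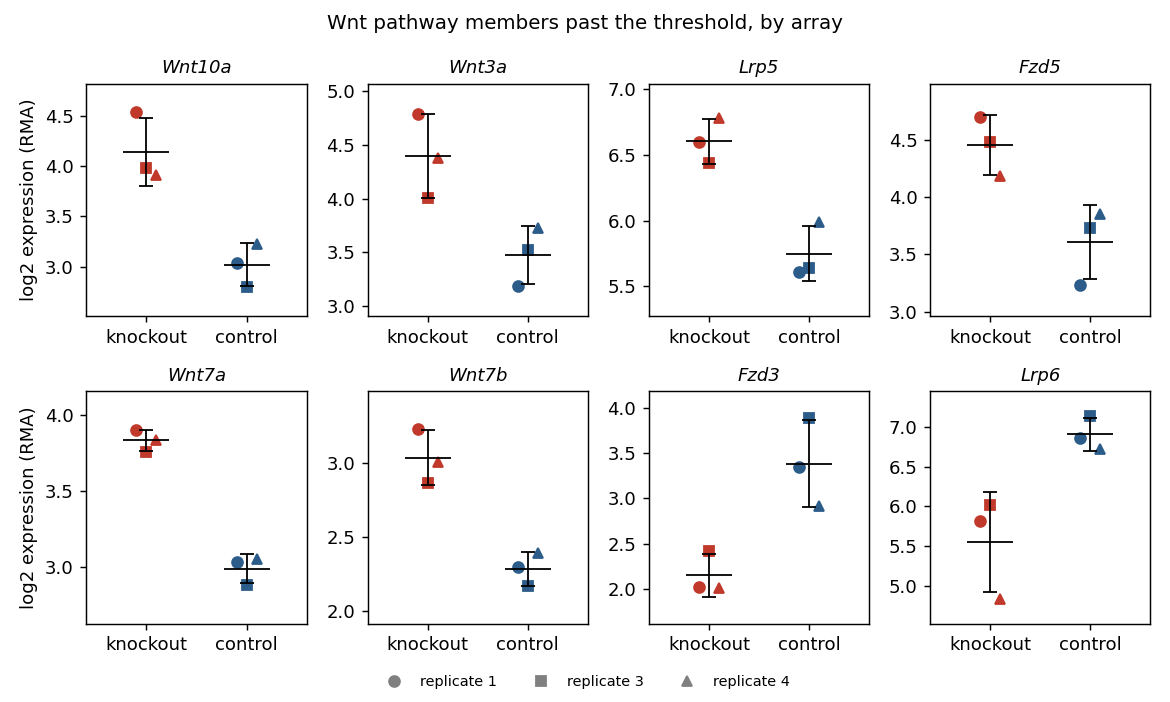
Log2 expression of the 8 members past the threshold on every array, knockout left and control right; symbols mark the replicate number, and bars give the mean and SD of 3 arrays. The groups do not overlap in any panel, and knockout replicate 4 is the lowest array of its group for Lrp6.

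Promoters are shown for the called members that had an entry in the RefSeq promoter table (GRCm38.p6), which were 3 of the 8. The table held 31 of the 50 members. Each line gives the 250 bases before the listed transcription start, 5′ to 3′ on the gene's strand. Capitals mark the GC box, GGGCGG on either strand, where overlapping boxes run together.
Wnt3a (chr11:59290752-59291001, minus strand): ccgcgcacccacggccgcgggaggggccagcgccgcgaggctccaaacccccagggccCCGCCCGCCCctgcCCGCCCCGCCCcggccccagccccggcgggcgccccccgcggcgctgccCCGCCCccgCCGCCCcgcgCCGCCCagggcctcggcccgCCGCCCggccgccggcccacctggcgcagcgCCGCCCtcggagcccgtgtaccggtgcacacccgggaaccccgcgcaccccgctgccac
Wnt7a (chr6:91411354-91411603, minus strand): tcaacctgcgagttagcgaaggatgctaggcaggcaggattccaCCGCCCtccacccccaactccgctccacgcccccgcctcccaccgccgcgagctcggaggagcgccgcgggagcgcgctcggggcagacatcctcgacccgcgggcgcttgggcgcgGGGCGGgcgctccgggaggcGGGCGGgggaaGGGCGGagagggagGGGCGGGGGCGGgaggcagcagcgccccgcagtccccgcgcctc
Fzd5 (chr1:64737751-64738000, minus strand): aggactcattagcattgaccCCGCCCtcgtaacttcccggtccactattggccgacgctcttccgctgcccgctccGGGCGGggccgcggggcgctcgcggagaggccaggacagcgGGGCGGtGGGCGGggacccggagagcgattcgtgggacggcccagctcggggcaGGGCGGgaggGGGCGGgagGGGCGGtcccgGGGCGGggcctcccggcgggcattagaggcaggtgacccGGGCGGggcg
These stretches held 87.6% G or C for Wnt3a, 77.6% for Wnt7a and 76.4% for Fzd5, where the median over 32851 listed promoters was 52.4%. GC boxes, the sites of Sp1-type factors, occurred 9 times for Wnt3a, 6 times for Wnt7a and 9 times for Fzd5, counting overlaps. At least 1 box was found for 23 of the 31 members. Counted by promoter, it was found in 24 of their 34 promoters and in 32.7% of all listed promoters. The core TGGAAA of the tonicity element bound by NFAT5 and the core CTTTGA of TCF and LEF sites were not found in these 3 stretches on either strand. Among the 31 members TGGAAA was found for Rspo1, Wnt16 and Wnt5b, in 4 of the 34 member promoters, against 18.6% of all listed promoters. CTTTGA was found for Dkk1, Fzd1, Wnt11 and Wnt5b, in 4 of the 34, against 13.8%. These matches describe letters in a short window and say nothing of binding.

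The co-receptors moved in opposite directions. Lrp5 had log2 values of 6.60, 6.44 and 6.78 in knockouts, against 5.61, 5.64 and 5.99 in controls, and rose by 0.86 ± 0.20 (SE; adjusted p = 0.0152). Lrp6 had values of 5.82, 6.02 and 4.84 in knockouts, against 6.86, 7.14 and 6.73 in controls, with a log2 fold change of −1.35 ± 0.31 (SE; adjusted p = 0.0135), and was 2.55-fold lower in knockouts. The proteins are close relatives that both pair with Frizzled to start β-catenin signalling, and LRP5 also serves Norrin signalling in retinal vessels. The groups did not overlap for either gene, and knockout replicate 4 was the array farthest from the controls for both.

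Among the 10 Frizzled receptors 1 was higher (10.0%) and 1 lower (10.0%) by limma, against 12.5% and 13.0% of all genes. The groups did not overlap at 8 (80.0%), where the background was 41.9%. Knockout arrays lay above the controls at 5 (50.0%, background 21.9%) and below them at 3 (30.0%, background 20.0%). Fzd5, which is needed for yolk sac vessels in the mouse embryo, stood at 4.70, 4.48 and 4.18 in knockouts, against 3.24, 3.73 and 3.85 in controls, a difference of 0.85 ± 0.24 (SE; adjusted p = 0.0287). Fzd3, a receptor of planar polarity and axon guidance, stood at 2.02, 2.42 and 2.01 in knockouts, against 3.35, 3.88 and 2.91 in controls, with a log2 fold change of −1.23 ± 0.27 (SE; adjusted p = 0.0115). Knockout values of Fzd3 lay near the arrays' lower quartile, where differences in level are poorly resolved.

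Fzd6, the partner of Fzd3 in planar polarity, missed the threshold at −1.09 ± 0.36 (SE; adjusted p = 0.0552). Its values were 4.48, 5.23 and 3.66 in knockouts, against 5.77, 5.59 and 5.28 in controls, and knockout replicate 3 came close to the controls. Fzd4, the Norrin receptor of blood vessels, averaged 5.75 ± 0.41 in knockouts and 6.41 ± 0.14 in controls (SD, n = 3 each), a difference of −0.67 ± 0.24 (SE; adjusted p = 0.0735). Fzd1 and Fzd2, receptors for several Wnt ligands, stood at 0.77 ± 0.25 (SE; adjusted p = 0.0509) and 0.84 ± 0.28 (SE; adjusted p = 0.0539), with all knockout arrays above all control arrays. In a bulk sample fewer cells of a type and less RNA per cell cannot be told apart.

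By limma 0 of 9 secreted antagonists were called, and 3 (33.3%) had an unadjusted p under 0.05, near the 37.5% of all genes. Wif1, which binds Wnt proteins directly, stood at 3.71, 3.51 and 3.94 in knockouts, against 3.35, 2.80 and 3.14 in controls, a difference of 0.62 ± 0.22 (SE; adjusted p = 0.0664). Dkk3, a divergent Dickkopf protein, stood at 5.83, 5.37 and 5.13 in knockouts, against 5.03, 4.80 and 4.76 in controls, a difference of 0.58 ± 0.23 (SE; adjusted p = 0.0957). For both genes every knockout array lay above every control array.

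Sfrp1, a secreted inhibitor that binds Wnt proteins, averaged 4.64 ± 0.91 in knockouts and 4.76 ± 0.06 in controls (SD, n = 3 each), with knockout replicate 4 at 3.60. Its fold change of −0.12 was 0.40 without that array, so its direction rests on 1 library. Sfrp4 had the lowest fold change of the antagonists, −0.63 ± 0.25 (SE; adjusted p = 0.0937), and Sfrp5 the highest, 0.63 ± 0.40 (SE; adjusted p = 0.295). Dkk1 differed by −0.04 ± 0.19 (SE; adjusted p = 0.895).

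Axin2, the feedback inhibitor often read as a measure of β-catenin signalling, was not called. It stood at 5.01, 4.57 and 4.66 in knockouts, against 4.20, 4.35 and 4.38 in controls, a difference of 0.44 ± 0.20 (SE; adjusted p = 0.138), and the groups did not overlap. Axin1, the scaffold of the destruction complex, averaged 4.19 ± 0.78 in knockouts and 3.92 ± 0.10 in controls (SD, n = 3 each) and differed by 0.27 ± 0.35 (SE; adjusted p = 0.627). Without knockout replicate 1 limma called it higher, at 0.72 (adjusted p = 0.0291).

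By limma 0 of the 4 R-spondins and 0 of the 3 Lgr receptors passed, each with 1 at an unadjusted p under 0.05, a threshold that 37.5% of all genes passed. Those were Rspo4 at 0.50 ± 0.19 (SE; adjusted p = 0.0916) and Lgr6, a marker of airway mesenchyme in the mouse, at 0.58 ± 0.21 (SE; adjusted p = 0.0718), and both had all knockout arrays above all control arrays. Rspo1 averaged 5.18 ± 0.14 in knockouts and 5.44 ± 0.40 in controls (SD, n = 3 each). Lgr5 stood at 2.85 on knockout replicate 1 and between 1.92 and 2.14 on the other arrays, near the lower quartile. Fzd10os differed by −0.27 ± 0.21 (SE; adjusted p = 0.378).

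Calls among the members depended on single arrays, as did calls over all genes. Of the 24704 genes, 6292 were called with all arrays, 2882 without control replicate 3 and 3141 without control replicate 1. Without control replicate 3, 1 of the 8 was still called, Fzd3 (adjusted p = 0.0497), and 0 members were higher by limma, with 7 at an unadjusted p under 0.05. The adjusted p without that array was 0.0511 for Wnt10a, 0.0554 for Wnt7a, 0.0647 for Lrp6 and 0.0715 for Lrp5. Without control replicate 1, the array with the high Xist value, the 3 called were Wnt10a, Wnt7a and Fzd3, and the adjusted p was 0.0525 for Lrp6, 0.0687 for Lrp5, 0.0732 for Wnt7b, 0.112 for Wnt3a and 0.113 for Fzd5. It was 0.0756 for Fzd5, 0.087 for Wnt3a and 0.0933 for Wnt7b without control replicate 3, and without control replicate 4 all 8 were called. Wnt3a and Fzd5 were lost without knockout replicate 1 (adjusted p = 0.0593 and 0.0638), Fzd5 without knockout replicate 3 (0.0606) and Wnt3a without knockout replicate 4 (0.0522). Leaving out 1 array at a time, the log2 fold change ranged from 0.93 to 1.24 for Wnt10a, from 0.79 to 0.88 for Wnt7a, from 0.65 to 0.84 for Wnt7b, from 0.72 to 1.11 for Wnt3a and from 0.67 to 0.99 for Fzd5. It ranged from 0.77 to 0.98 for Lrp5, from −1.58 to −0.99 for Lrp6 and from −1.47 to −0.98 for Fzd3. As the groups did not overlap at any of these 8, leaving out 1 array could not turn their direction.

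Of 82 other pathway genes measured, from lists written by role, 21 were higher (25.6%) and 14 lower (17.1%), where the background was 12.5% and 13.0%. The lists hold brighter genes than that background. Of the 82 genes, 7 had means below the arrays' median in both groups, against 10878 of all 24704 genes. Shares called among genes of like level were not compared, for these lists or for each role below. Wls, which carries Wnt proteins to the cell surface, stood at 4.93, 5.62 and 4.19 in knockouts, against 6.30, 6.49 and 6.25 in controls, a log2 fold change of −1.43 ± 0.33 (SE; adjusted p = 0.0137). Porcn, which attaches their lipid, differed by 0.38 ± 0.30 (SE; adjusted p = 0.405). Ctnnb1, the gene of β-catenin, stood at 6.97, 7.81 and 6.83 in knockouts, against 8.17, 8.24 and 8.23 in controls, a log2 fold change of −1.01 ± 0.27 (SE; adjusted p = 0.0246). Both Wls and Ctnnb1 were lower on every knockout array than on any control array.

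In the cytoplasm 5 of 23 genes were higher (21.7%) and 7 lower (30.4%), against 12.5% and 13.0% of all genes. Dvl1, which relays the Frizzled signal, rose by 1.38 ± 0.23 and the kinase gene Gsk3a by 1.12 ± 0.20, while the destruction complex scaffold Apc stood at −1.58 ± 0.29 and the LRP6 kinase gene Csnk1g1 at −1.18 ± 0.19 (SE). Of 16 polarity and noncanonical genes 6 were higher (37.5%) and 1 lower (6.25%), beside the same background. The pseudokinase receptor Ptk7 rose by 1.51 ± 0.18, the polarity scaffold Scrib by 1.27 ± 0.22 and the Wnt5a receptor Ror2 by 1.02 ± 0.19, and the formin Daam1 stood at −1.77 ± 0.29 (SE). Adjusted p ran from 0.0019 for Ptk7 to 0.00617 for Apc.

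Of 4 genes that serve Wnt and Norrin signalling in endothelial cells 1 was higher and 2 lower. Adgra2 (Gpr124) and Reck form the receptor complex for Wnt7a and Wnt7b on brain endothelium in the mouse, and Tspan12 assists FZD4. Adgra2 stood at 5.43, 5.99 and 6.05 in knockouts, against 4.84, 4.93 and 5.24 in controls, a difference of 0.82 ± 0.23 (SE; adjusted p = 0.0304). Reck stood at 4.61, 5.12 and 4.50 in knockouts, against 5.39, 5.54 and 5.58 in controls, a difference of −0.76 ± 0.22 (SE; adjusted p = 0.0337). Tspan12 stood at 5.72, 6.18 and 5.34 in knockouts, against 7.16, 7.27 and 7.08 in controls, a difference of −1.42 ± 0.24 (SE; adjusted p = 0.00441). The partners Adgra2 and Reck thus passed in opposite directions.

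Inhibitors at the membrane were higher at 3 of 9 (33.3%) and lower at 0, against 12.5% and 13.0% of all genes. Kremen2 and Kremen1, which remove LRP6 together with Dickkopf proteins, rose by 0.93 ± 0.20 (SE; adjusted p = 0.0106) and 0.73 ± 0.18 (SE; adjusted p = 0.0168), and Trabd2b, a protease that inactivates Wnt proteins, by 0.88 ± 0.22 (SE; adjusted p = 0.0188). In the nucleus 4 of 15 genes were higher (26.7%) and 2 lower (13.3%), beside the same background. The β-catenin partner Bcl9l stood at 1.22 ± 0.26 (SE; adjusted p = 0.0111). The co-repressor genes Tle3, Ctbp1 and Tle4 stood at 0.86 ± 0.21, 0.72 ± 0.21 and −1.28 ± 0.29 (SE; adjusted p = 0.017, 0.0353 and 0.014). Lef1 was not called (0.44 ± 0.20 SE, adjusted p = 0.144), and Tcf7 was not analysed here. Of its relatives, Tcf7l1 was called at 0.86 ± 0.27 (SE; adjusted p = 0.0471), and Tcf7l2 was not called (−0.51 ± 0.25 SE, adjusted p = 0.173).

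Of 17 common target genes 2 were higher (11.8%) and 1 lower (5.9%), against 12.5% and 13.0% of all genes. Nkd1, a feedback inhibitor that binds Dishevelled, stood at 6.50, 6.34 and 6.62 in knockouts, against 4.91, 5.33 and 5.34 in controls, and rose by 1.30 ± 0.20 (SE; adjusted p = 0.0035). Sox9 stood at 1.17 ± 0.35 (SE; adjusted p = 0.0379) and Cd44 at −1.10 ± 0.32 (SE; adjusted p = 0.0346). Of all 35 pathway calls, 11 were kept without control replicate 3, 12 without control replicate 1 and 24 without control replicate 4. The groups did not overlap at any of the 35, so leaving out 1 array could not change a sign. Among the genes named, Apc, Csnk1g1, Dvl1, Gsk3a, Ptk7, Scrib, Ror2, Daam1, Tspan12 and Nkd1 were called whichever array was left out. Kremen2 was lost without control replicate 3 (adjusted p = 0.0565). Wls, Ctnnb1, Adgra2, Reck, Kremen1, Trabd2b, Bcl9l, Tle3, Tle4, Ctbp1, Sox9 and Cd44 were each lost without control replicate 1 and without control replicate 3, for example Wls at 0.0532 and 0.0624 and Ctnnb1 at 0.0783 and 0.0877. Without control replicate 4 the calls of Ctnnb1, Reck, Trabd2b, Ctbp1, Sox9 and Cd44 were lost too (adjusted p = 0.0719, 0.101, 0.0683, 0.0715, 0.0938 and 0.0819). Leaving out a knockout array kept 27 to 30 of the 35. Among the genes named, Ctnnb1 (0.0554), Reck (0.0676) and Sox9 (0.0761) were lost without knockout replicate 1. Adgra2 (0.0763), Ctbp1 (0.0599) and Sox9 (0.0876) were lost without knockout replicate 3, and Ctnnb1 (0.062), Reck (0.08), Adgra2 (0.0732) and Ctbp1 (0.0804) without knockout replicate 4. Tcf7l1 was lost without knockout replicate 1 or 4 and without control replicate 1, 3 or 4.

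**Figure D3:**
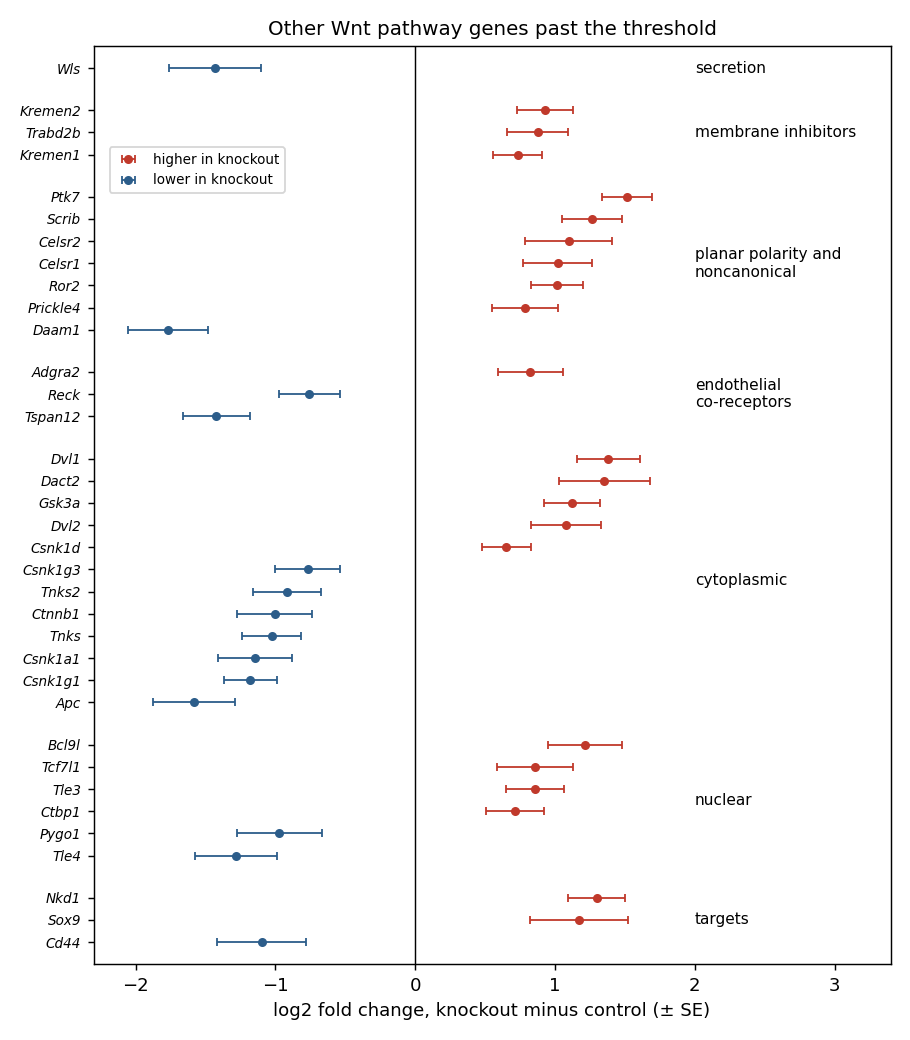
Log2 fold change, knockout minus control, with its standard error (horizontal bars) for the 35 other pathway genes past the threshold, by list, from 3 knockout and 3 control arrays. Colour separates the 21 genes higher in knockouts from the 14 lower; cytoplasmic genes lie on both sides of 0.

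Fold changes over all protein-coding genes declined with gene span, the distance from the first to the last base of the gene. Across 19686 genes Spearman's rho was −0.32, and across the 49 protein-coding members −0.11, as a description, since genes share arrays. In the longest of 5 bins (median 113.2 kb) the median fold change over all genes was −0.33, and over the 12 members in it 0.32. Lrp6, Fzd3 and Lrp5 were in that bin. Wnt3a, Wnt7a and Wnt7b were in the next bin, where the median over all genes was −0.14. With the trend on span removed from each array 7 of the 8 members were still called, while Fzd5 was not (0.59, adjusted p = 0.0973). That setting tested protein-coding genes only and called 5137 of 19686. Of the 49 members it called 11 higher and 4 lower. Among these were Dkk3, Wif1, Sfrp4, Rspo4 and Lgr6, which had not been called without the correction. Among the other pathway genes named it ended the calls of Reck, Cd44 and Sox9.

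**Figure D4:**
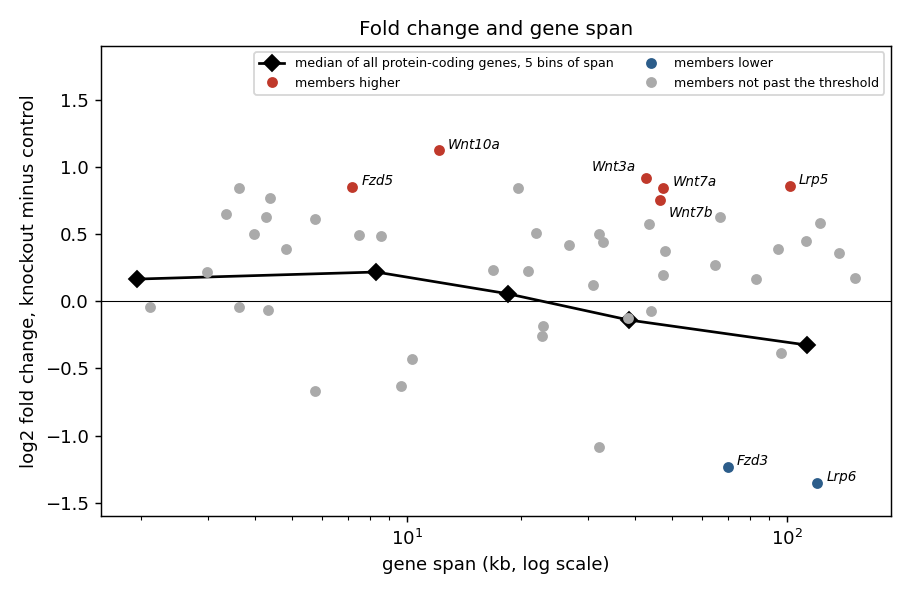
Log2 fold change, knockout minus control, against gene span in kb (log scale) for the 49 protein-coding members (points), with the median of all protein-coding genes in 5 bins of span. Lrp5 and Lrp6 lie at similar spans (102 and 120 kb) and at 0.86 and −1.35.

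Array correlations across genes were 0.916 to 0.939 within knockouts, 0.968 to 0.970 within controls and 0.829 to 0.919 between groups. Nfat5 itself had a log2 fold change of −2.23 ± 0.23 (SE; adjusted p = 0.00151). The lung markers Sftpc and Scgb1a1 averaged 11.76 and 11.94 in knockouts, against 12.20 and 12.53 in controls. The mean log2 level of 5 mesothelial markers was 5.38 to 5.48 in knockouts and 4.70 to 4.94 in controls (1 higher, 0 lower). That of 5 fat markers was 2.94 to 3.41 in knockouts and 3.93 to 5.09 in controls (0 higher, 2 lower), and that of 7 macrophage markers 3.98 to 4.52 in knockouts and 4.86 to 4.97 in controls (0 higher, 2 lower). That of 8 alveolar type 2 markers was 8.61 to 9.15 in knockouts and 9.29 to 9.46 in controls (1 higher, 3 lower). The 12 endothelial markers were higher at 5 and lower at 5 (6.98 to 7.23 in knockouts and 7.17 to 7.37 in controls), and 11 fibroblast markers higher at 3 and lower at 1 (6.34 to 6.60 in knockouts and 6.46 to 6.52 in controls). Of 7 heart and muscle markers 2 were higher and 0 lower (5.50 to 6.54 in knockouts and 4.66 to 5.81 in controls). They were Myh6, a heart myosin gene, at 0.85 ± 0.22 (SE; adjusted p = 0.0215) and Actc1, the cardiac actin gene, at 0.91 ± 0.28 (SE; adjusted p = 0.0428). Of 7 ciliated cell markers 2 were higher and 3 lower (3.90 to 4.49 in knockouts and 4.41 to 4.63 in controls), and of 7 alveolar type 1 markers 1 was higher and 3 lower (7.707 to 7.998 in knockouts and 7.949 to 8.260 in controls). Of 11 thymus and T cell markers 1 was higher and 1 lower (2.65 to 2.87 in knockouts and 2.57 to 2.97 in controls). Of 8 smooth muscle markers 0 were higher and 1 lower by limma, of 4 club cell markers 0 and 1, and of 3 blood markers 0 and 0, with 2, 3 and 0 at an unadjusted p under 0.05. Of all genes 12.5% were higher and 13.0% lower, 25.5% in either direction. Above this share lay endothelial (83.3% called), ciliated (71.4%), alveolar type 1 and 2, fat, fibroblast, macrophage and heart and muscle markers. Below it lay mesothelial (20.0%), thymus and T cell (18.2%), smooth muscle (12.5%) and blood markers. At each of the 12 endothelial markers the groups did not overlap (background 41.9%). They did not overlap at 75.0% of club cell, 60.0% of mesothelial, 57.1% of macrophage and 54.5% of thymus and T cell markers. The share was 42.9% for heart and muscle, 12.5% for smooth muscle and 0% for blood markers. These shares were not tested. The part of the marker shifts in the Wnt results was not tested.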

How the data were processed

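Whole-lung RNA from 3 knockout and 3 control mice was hybridised as biotin-labelled cRNA to single-colour Affymetrix arrays, per the labels' protocols. The deposited table holds a log2 value for each probe set, made with RMA per the submitters' processing notes, which give no version. Judged by the values, all arrays share their quantiles (lower quartile 2.02, median 2.98), so a shift common to all genes cannot be seen. There were no detection calls, so background is unknown, and precision is limited by how few arrays there were.

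Of 25428 probe sets, 24705 carried 1 symbol, 0 carried several and 723 had no name here. RefSeq (GRCm38.p6) held 24673 of them. The brighter probe set was kept per symbol, leaving 24704 genes with no filter on dim genes. Groups were compared with limma 3.58.1 in R 4.3.3 (lmFit, eBayes; Benjamini-Hochberg over all genes, threshold 0.05), and errors are moderated standard errors. The p-values measure the spread between these samples only.

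Any member could be named, called ones with every array. Of other pathway genes, up to 4 called per list by smallest p could be named, and Ctnnb1, Porcn, Wls, Lef1, Tcf7 and Nkd1 always. Tcf7l1 and Tcf7l2 were named in addition after seeing the data. Promoters were allowed for at most 4 called members. Members and lists were chosen with earlier results of these data known. Restriction to protein-coding genes, and all alternatives for the other pathway genes, were added after seeing the data.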

Additional observations from a re-analysis of the deposited data

How the results depend on the processing

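Under 19 alternative settings the members' median fold change stayed between 0.31 and 0.49. Called members kept their direction, but most of these settings could not change it. Several leave each fold change as it was, and leaving out 1 array cannot turn a gene whose groups do not overlap. Leaving out 1 array at a time gave 2882 (control replicate 3) to 6155 genes past threshold in place of 6292, 0 to 10 members higher, 1 to 4 lower, and a median of 0.31 to 0.40. An adjusted p of 0.01 left 2560 genes, 1 member higher and 0 lower by limma (5 lower at an unadjusted p under 0.05). One of 0.1 gave 8290 genes, 15 members higher and 5 lower. A 2-fold minimum left 3810 genes and 1 member higher. With the span trend removed 5137 of 19686 protein-coding genes passed, and 11 of 49 members were higher and 4 lower. Restriction to protein-coding genes alone gave 5854 genes, 9 members higher and 3 lower. With the replicate block 6082 genes passed, 6 members were higher and 3 lower. Fzd5 lost its call there (adjusted p = 0.0547), and Fzd1 and Fzd6 gained one. Same-numbered arrays did not deviate together (correlations 0.06, −0.01 and 0.0038), and not every array correlated best with its own number, so the numbers were not taken as pairs. Other pathway genes numbered 6 higher and 5 lower at 0.01, 12 higher at the 2-fold minimum, and 6 to 20 higher and 5 to 13 lower with 1 array left out. Of 922 member values under alternatives, many of which could not change sign, 15 did, all of uncalled genes. With the span trend removed these were Sfrp1 at 0.0538, Wnt3 at 0.14 and Fzd10 at −0.0818. With 1 array left out, values ran from −0.12 to 0.0454 for Dkk1, −0.15 to 0.00839 for Dkk4, −0.0507 to 0.41 for Fzd10, −0.29 to 0.23 for Fzd9, −0.46 to 0.40 for Sfrp1, −0.17 to 0.42 for Wnt2, −0.48 to 0.12 for Wnt5a and −0.057 to 0.26 for Wnt6. Low signal limits, among others, Wnt3 and Wnt8b in both groups, Fzd3 in knockouts, and Wnt7b, Wnt1, Wnt9b and Rspo4 in controls. Of the 50 members 18 had means below the arrays' median in both groups, against 10878 of all 24704 genes. The causes of these changes were not tested.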
